A study of Mus musculus with 63 samples.

Results

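Interferon-stimulated genes are the genes that cells switch on when interferon signals at their surface, and 42 of them were followed through every RNA library of a study of Chaserr and Chd2. Members were taken from a list of gene symbols, chosen with earlier results of these data known, and all 42 were found among the 24990 rows of the gene tables. Chaserr is a long noncoding RNA encoded next to Chd2, which encodes a chromatin remodeller, and the Chaserr- allele lacks the Chaserr promoter and first exon. The Chd2 m allele carries a frameshift in an early exon and was described as hypomorphic. RNA was sequenced from whole E9.5 embryos, whole E13.5 embryos and adult brains of WT and Chaserr+/- mice, with 3 libraries a group. Mouse embryonic fibroblasts (mEFs), primary cultures grown from E13.5 embryos without head and liver, came in 4 sets, each with 3 WT cultures of its own. These sets held 3 Chaserr+/- cultures, 3 Chaserr-/- cultures, 2 Chd2 m/m cultures and 3 Chaserr-/- Chd2 m/m cultures. The double mutant allele was made by deleting Chaserr on the Chd2 m/m background, and the animals came from edited CB6F1 mice backcrossed to C57BL/6. The WT cultures of the Chaserr+/- and of the Chaserr-/- set each shared a pregnancy with their mutants. In the double mutant set the titles name the Chaserr+/- Chd2+/m cross for the WT cultures and the Chd2+/m cross for the mutants, while the descriptions place both in 1 set. No culture, embryo or mouse was given interferon or infected according to the labels, so the levels below are basal levels. A further 6 libraries were from an RNA immunoprecipitation (RIP) in Neuro2a, an established mouse neuroblastoma line, with 2 libraries each for CHD2 antibody, IgG and input, and 12 ATAC-seq libraries mapped open chromatin in mEFs of the Chaserr-/- and double mutant sets.

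Total counts per library ranged from 7621335 to 33192002 over the 47 RNA libraries, and from 9672637 to 16983416 over the mEF libraries, and no 2 tables held identical values. The labels do not say for every group that libraries came from separate animals, so p-values measure the spread between these libraries. The targeted gene followed the labels. Chaserr was at 0 in all 3 Chaserr-/- cultures against 4.03 to 6.47 CPM (counts scaled to library size) in their WT cultures, and at 0, 0.0596 and 0.098 CPM in the double mutants against 34.6 to 41.8 CPM. That last WT level stood above the 8.04 to 9.80 CPM of the WT cultures of the Chaserr+/- and Chd2 m/m sets. The 10 fibroblast markers summed to between 2206 and 7663 TPM (the RSEM level scaled by transcript length and library) in the WT mEFs, and the 5 neuron markers to between 3060.1 and 3860.2 TPM in WT brains against at most 24.5 TPM in WT mEFs. In bulk RNA fewer cells of a type and less RNA per cell cannot be told apart.

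Type I interferon binds a receptor whose kinases activate transcription factors, STAT2 among them. With IRF9, STAT2 takes part in a complex that binds the interferon-stimulated response element (ISRE) in the promoters of its target genes. The targets include sensors of foreign RNA, enzymes and membrane proteins that block viruses, guanylate-binding GTPases, the ubiquitin-like modifier ISG15 and the p200 family of nucleic acid binding proteins. IRF7, itself a target, raises interferon production and so feeds the loop. Uninfected cells, macrophages among them, keep a low tone of these genes from small amounts of interferon made without any infection.

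The promoters of the members carried the ISRE core more often than promoters at large. The core was searched as GAAANNGAAA, on both strands, in the 250 bases before each start in the RefSeq promoter table (GRCm38.p6), in which 31 of the 42 members had an entry. It was present in 13 of these 31 (41.9%) and in 936 of all 27025 genes with a promoter there (3.46%). The promoter stretches below are 120 bases each, end just before the start and read 5′ to 3′ on the strand of the gene. They were picked from members that carry a match and have results described further on. Capitals mark matches to the core or its reverse complement. Ifi44, Irf7, Irf9, Xaf1, Lgals3bp, Ddx58 and Ifitm3, which also have results further on, had no match in the window searched. Nor did Ifit2, Isg20, Oasl1, Oasl2, Ifih1, Ifi35, Trim25, Tap1, Psmb8 and Psmb9, which are named further on too.
Ifit1, chr19:34640769-34640888, plus strand: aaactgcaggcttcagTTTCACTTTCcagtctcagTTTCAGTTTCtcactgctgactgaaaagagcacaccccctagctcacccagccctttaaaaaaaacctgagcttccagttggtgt
Isg15, chr4:156200819-156200938, minus strand: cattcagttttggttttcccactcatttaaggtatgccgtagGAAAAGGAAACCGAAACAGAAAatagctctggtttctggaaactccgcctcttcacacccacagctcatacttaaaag
Gbp3, chr3:142559924-142560043, plus strand: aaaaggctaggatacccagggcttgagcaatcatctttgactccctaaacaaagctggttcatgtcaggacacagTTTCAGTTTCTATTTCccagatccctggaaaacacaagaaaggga
Gbp7, chr3:142530216-142530335, plus strand: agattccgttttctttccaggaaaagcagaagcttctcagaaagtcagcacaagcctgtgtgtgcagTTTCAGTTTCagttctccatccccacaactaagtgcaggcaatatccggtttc
Oas3, chr5:120777660-120777779, minus strand: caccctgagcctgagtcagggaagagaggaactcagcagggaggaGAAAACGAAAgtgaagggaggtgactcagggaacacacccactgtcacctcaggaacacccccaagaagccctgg
Ifi203, second listed start, chr1:173942493-173942612, minus strand: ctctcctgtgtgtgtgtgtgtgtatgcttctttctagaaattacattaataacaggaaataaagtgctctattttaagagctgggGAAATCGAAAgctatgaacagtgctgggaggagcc
The Ifit1 stretch held 2 separate cores, the Isg15 and Gbp3 stretches held overlapping runs of the repeat, and Gbp7, Oas3 and the second start of Ifi203 held 1 core each. The first listed start of Ifi203 held none in the window searched. A match is a string of letters and no measurement of binding, and no match says only that these letters are not in the window.

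Basal levels of the members differed by more than an order of magnitude between tissues and culture sets. In E9.5 embryos the median member stood at 0.25 to 0.34 TPM in the 3 WT libraries, and 13 of 42 members had a mean of at least 1 TPM. In E13.5 embryos the median was 1.57 to 2.12 TPM with 33 members at 1 TPM or more, and in adult brain 1.98 to 2.18 TPM with 29 members. WT mEFs of the Chaserr+/- and Chd2 m/m sets had medians of 1.76 to 1.87 and 1.57 to 2.61 TPM. WT mEFs of the double mutant set stood at 5.98 to 9.28 TPM and those of the Chaserr-/- set at 9.64 to 13.8 TPM, with 40 and 41 members at 1 TPM or more. Libraries of different kits and sets were each scaled only within themselves, so levels set side by side across them are descriptions.

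**Figure D1:**
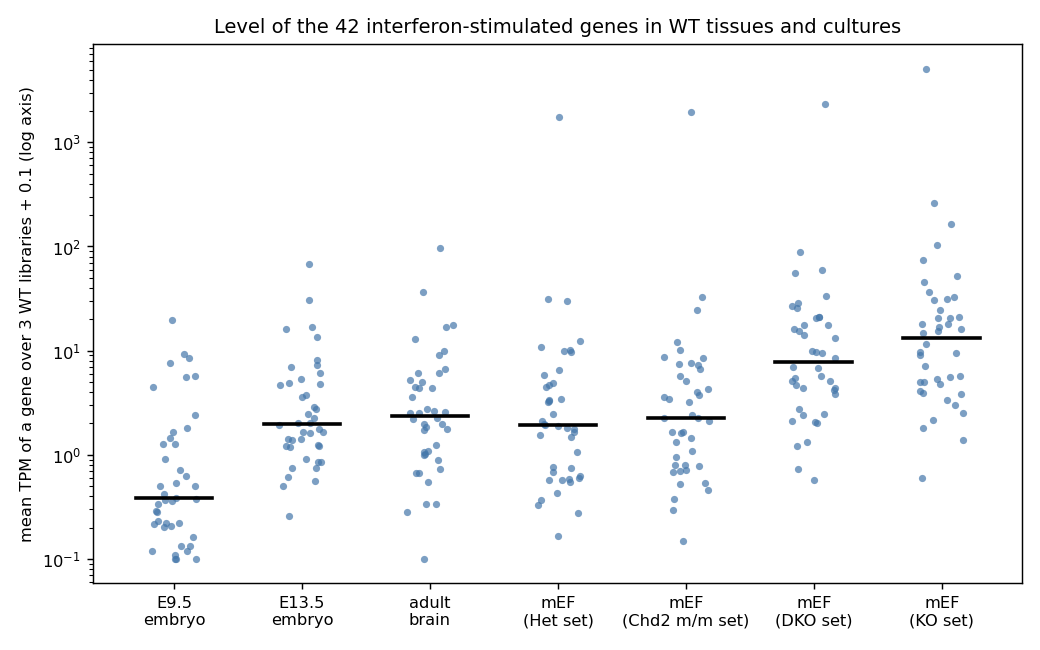
Each point is 1 of the 42 interferon-stimulated genes, plotted as its mean TPM plus 0.1 on a log axis in 7 groups of WT libraries (3 libraries each), and the black line is the median gene (Het set, Chaserr+/-; KO set, Chaserr-/-; DKO set, double mutant). The median line is lowest in E9.5 embryos and highest in the WT mEFs of the Chaserr-/- set, and Ifitm3 is the top point in every group.

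Ifitm3, which encodes a membrane protein that keeps viruses from fusing with cell membranes, was the highest member in every embryo, brain and mEF group. Its level was 15.9 to 24.3 TPM in WT E9.5 embryos, 65.2 to 69.8 in E13.5 embryos, 39.4 to 135 in brains and between 1436 and 6284 in WT mEFs. The level of the tonic loop gene Irf7 was 0.05 to 0.18 TPM in E9.5 embryos, 1.46 to 2.89 in E13.5 embryos, 1.96 to 6.55 in brains, and 2.36 to 85.4 across WT mEFs. Stat2 was far steadier, between 4.20 and 18.4 TPM in every WT library. Among the p200 genes, Ifi204 lay at 0.33 to 0.54 TPM in brain and 12.8 to 29.0 TPM in the WT mEFs of the double mutant set, while Ifi205 was at 0 in all 3 WT brains and reached 3.39 TPM at most. Mx1, an antiviral GTPase that is defective in many laboratory strains, stayed at or under 0.69 TPM in every WT embryo, brain and mEF library and, among the comparisons of a mutant with WT, passed the filter on low counts only in E13.5 embryos.

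Between E9.5 and E13.5, WT embryos gained most of the list. Of 39 members tested, 34 rose and 1 fell at an adjusted p under 0.05 in edgeR's quasi-likelihood test, against 80.4% of all genes called and 42.1% called higher. The median difference of the members was 2.09 on the log2 scale against 0.06 for all genes. The immunoproteasome subunit Psmb8 was at 0 in the 3 E9.5 WT libraries and at 2.29 to 2.54 CPM at E13.5, at least 64.2-fold higher when a count of 3 over the E9.5 group stands in for 0. By the same bound Ifi44 was at least 23.3-fold and Oasl1, an OAS-like protein, at least 16.7-fold higher. Ifi204 was at 0 to 0.13 CPM at E9.5 and at 2.86 to 3.06 CPM at E13.5, and Ifi27 at 0.08 to 0.22 and 6.21 to 8.10 CPM. All 3 members that transmit the signal rose, with Irf7 changing by 4.06, Irf9 by 0.67 and Stat2 by 0.59 on the log2 scale. Xaf1, a proapoptotic gene, fell from 9.68 to 15.5 CPM down to 2.57 to 2.83 CPM (log2 difference -2.11, adjusted p = 6.2e-06, edgeR). Ifit2, Oas3, Dhx58 and Isg20 did not pass. The 17 macrophage markers, all detected at both stages, summed to 11.1 to 13.0 TPM at E9.5 and to 379 to 416 TPM at E13.5, and the erythroid markers to 1753 to 3590.2 TPM and 21848 to 41033 TPM. Their part in the rise was not tested.

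The largest differences among the mEFs were not between genotypes but between sets of WT cultures. Across the 4 WT sets 41 of 42 members differed at an adjusted p under 0.05 in an edgeR test over 12 cultures scaled together, where 88.1% of all genes also differed, the exception being Isg20. The highest set mean was 1.54-fold (Ifit2) to 36.9-fold (Zbp1) above the lowest, with a median of 7.48-fold, and 13 members differed by 10-fold or more. The Chaserr-/- set was the highest for 36 members and the double mutant set for 6. The Chaserr+/- set was the lowest for 31 members, the Chd2 m/m set for 10 and the double mutant set for 1. For 29 of the 42 members every WT culture of the Chaserr-/- and double mutant sets lay above every WT culture of the other 2 sets. The folds, the order of sets and this count were taken for members alone, without a share over all genes. Mean levels of Isg15 were 38.0 CPM in the highest set and 1.69 CPM in the lowest, those of Irf7 71.6 and 3.22 CPM, those of the OAS-like gene Oasl2 90.7 and 2.97 CPM, and those of Usp18, the protease that removes ISG15, 31.3 and 1.76 CPM. Set, pregnancy and cross go together in these cultures and cannot be told apart.

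The mean log2 CPM over the 42 members placed the cultures in the same order. It was 1.57 ± 0.13 (SD, n = 3) in the WT cultures of the Chaserr+/- set, 1.96 ± 0.27 in those of the Chd2 m/m set, 3.31 ± 0.47 in those of the double mutant set and 4.05 ± 0.27 in those of the Chaserr-/- set. The macrophage markers followed the same order of sets in their mean and sum, though single markers did not. Mrc1, Ptprc, Adgre1 and Ctss were higher, without overlap, in the WT cultures of the double mutant set than in those of the Chaserr-/- set. Mrc1 stood at 12.4 to 16.9 TPM in the former and 6.17 to 11.5 TPM in the latter. Cd14 and Mrc1 were lower in the Chd2 m/m set than in the Chaserr+/- set. All 17 macrophage markers were detected in every mEF group, and their mean log2 CPM was 2.95 to 3.30 in the WT cultures of the Chaserr+/- set, 3.71 to 4.10 in the Chd2 m/m set, 4.40 to 4.48 in the double mutant set and 4.69 to 5.05 in the Chaserr-/- set. Their summed level was 320.02 to 430.1 TPM, 545 to 808 TPM, 923 to 1034 TPM and 1351 to 1608 TPM in the same sets. The 5 erythroid markers summed to 3.38 to 7.45 TPM, 14.0 to 48.2 TPM, 57.5 to 893 TPM and 421 to 919 TPM in the same sets. The part of macrophage and erythroid RNA in the differences between sets was not tested.

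**Figure D2:**
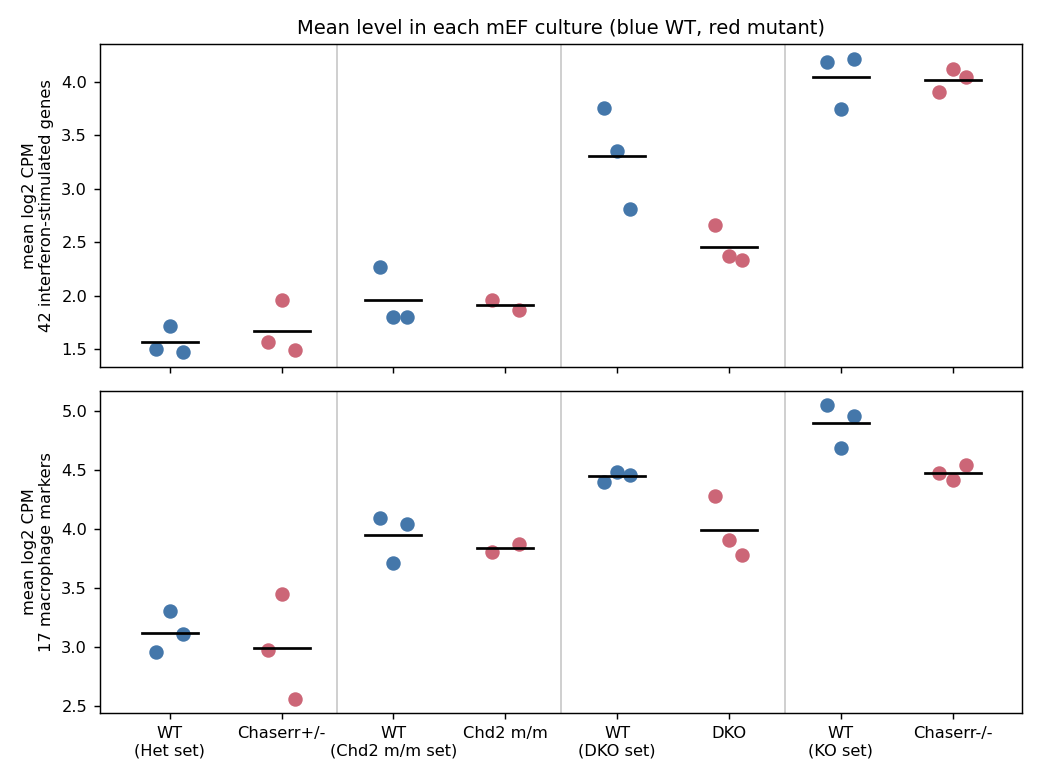
Each point is 1 mEF culture, plotted by its mean log2 CPM over the 42 interferon-stimulated genes and over the 17 macrophage markers, by set and genotype (blue WT, red mutant, black line the mean of a group, set names as Het for Chaserr+/-, KO for Chaserr-/- and DKO for the double mutant). WT cultures of the Chaserr-/- and double mutant sets sit above 2.8 for the members and WT cultures of the other sets below 2.3.

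Replicate cultures of a WT group also differed more in these genes than in genes at large. The SD of log2 CPM among the 3 WT cultures had a median over the members of 0.22 in the Chaserr+/- set, where the median over all 14437 genes was 0.11. It was 0.29 against 0.17 in the Chaserr-/- set, 0.29 against 0.11 in the Chd2 m/m set and 0.50 against 0.17 in the double mutant set. Genes were not matched for level, whose part in these SDs was not tested. Mean log2 CPM over the members was 1.47 to 1.72 in the Chaserr+/- set, against 3.62 to 3.65 over all genes. It was 1.80 to 2.27 against 3.69 to 3.71 in the Chd2 m/m set. In the double mutant set it was 2.81 to 3.76 against 3.78 to 3.85, and in the Chaserr-/- set 3.74 to 4.22 against 3.75 to 3.79. Above the SD that 10% of all genes exceed lay 9 of 42 members in the Chaserr+/- set and 15 in the Chd2 m/m set. In the Chaserr-/- set 5 did (11.9%), close to the share of all genes. In the double mutant set 41 of 42 members had an SD above the median gene, and 23 lay above an SD of 0.47, which 10% of all genes exceed. These cultures moved together over the list. Replicate 1 was the highest for 38 members, at a median of 133% of the group mean, and replicate 3 the lowest for 37, at 68.0%. In the other WT groups, replicate 5 of the Chaserr-/- set was the lowest for 36 members and replicate 1 of the Chd2 m/m set the highest for 37. A single culture can thus carry much of the difference between a mutant group and its own WT, and such cases are given with each result.

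In the double mutant mEFs the members were low as a body. All 40 tested members had a lower mean level than in WT, with a median log2 difference of -0.92 against -0.01 for all genes, and the mean mutant level was between 24.9% and 93.3% of the WT mean, with a median of 52.6%. Only Ifi203 was called by edgeR at an adjusted p under 0.05, where 0.0924% of all genes were called. At an unadjusted p under 0.05, 33 of the 40 were lower, against 5.73% of all genes. For 26 of the 40 every mutant culture lay below every WT culture, against 7.4% of all genes lying below and 6.44% lying above without overlap. DESeq2, the tool of the study, called 15 of the members lower, against 1.72% of all genes with an adjusted p called in either direction. Mx1 and Psmb9 did not pass the filter on low counts.

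**Figure D3:**
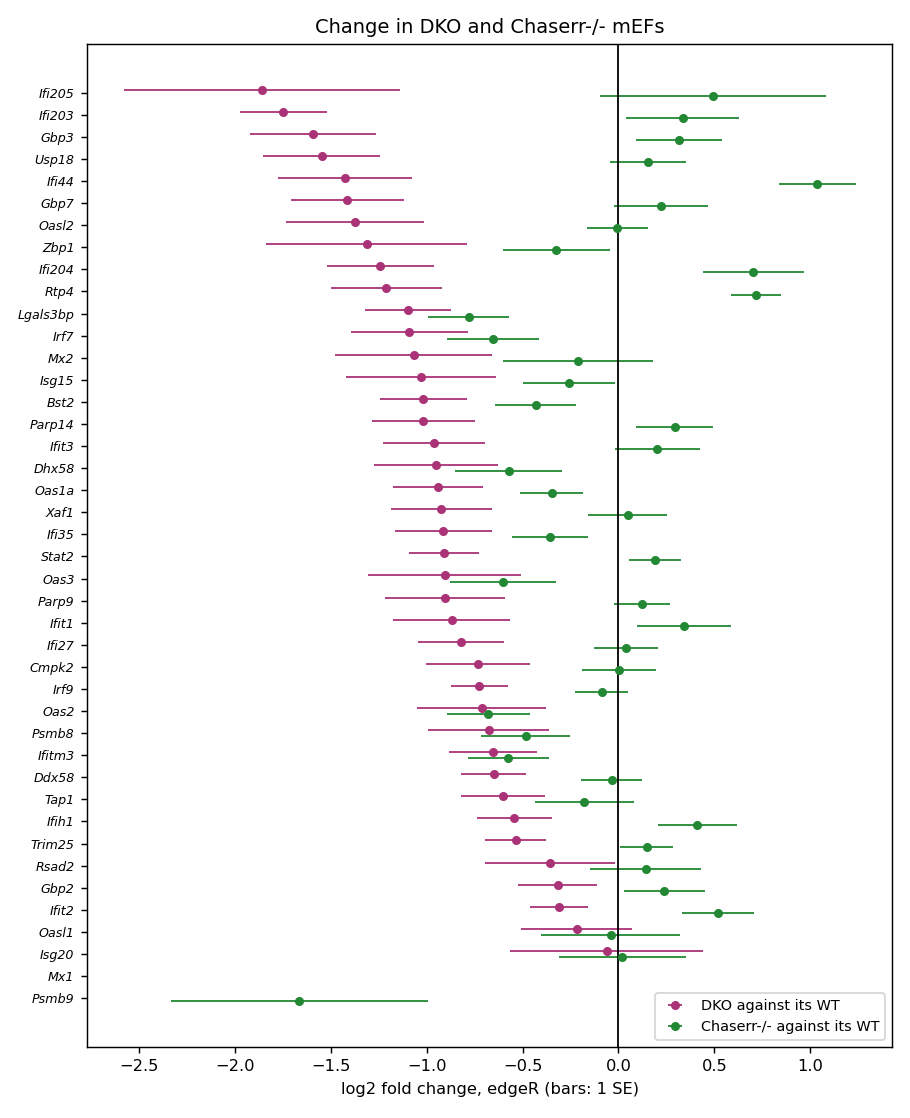
Log2 difference from WT, with its SE, for the members tested in mEFs of the double mutant (DKO) and of Chaserr-/-, 3 cultures against 3 WT cultures in each. All points of the double mutant lie below 0, while those of Chaserr-/- lie on both sides.

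The p200 genes lie in a cluster on chromosome 1 and encode proteins that bind nucleic acids and act in innate sensing and growth control. In mm9, on the minus strand, Ifi204 spans chr1:175677424-175697050, Ifi203 chr1:175850538-175872803 and Ifi205 chr1:175942129-175961886. These genes are close paralogs whose shared reads RSEM divides between them, so the level of each alone is uncertain. Ifi203 stood at 4.55, 3.75 and 4.31 CPM in the double mutants and at 18.3, 13.48 and 10.4 CPM in WT. The groups were well apart, and Ifi203 fell by 1.75 on the log2 scale (SE 0.23, adjusted p = 0.029, edgeR), 3.36-fold. Its adjusted p ranged from 7.07e-08 with DESeq2 to 0.145 over 12 alternatives, and 8 of them called it. Ifi204 stood at 13.48, 10.1 and 8.53 CPM against 36.2, 24.4 and 15.6 CPM in WT, again without overlap (log2 difference -1.24, SE 0.28, edgeR adjusted p = 0.13). Ifi205 was low, at 0.558, 0.715 and 0 CPM against 2.95, 1.54 and 0.632 CPM (log2 difference -1.86, SE 0.72), and its groups overlapped. The related genes Mnda and Mndal had log2 differences of -1.23 and -1.44 with edgeR adjusted p values of 0.23 and 0.27. Ifi202b stood at 0.558, 0.953 and 12.7 CPM against 4.36, 3.00 and 20.2 CPM, with replicate 3 the highest in both groups.

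The 3 transcription factors of the list were each lower in every double mutant than in all or nearly all WT cultures, without a call by edgeR. Stat2 stood at 22.3, 18.3 and 17.8 CPM against 44.9, 38.1 and 27.0 CPM in WT (log2 difference -0.91, SE 0.18). Irf9 stood at 23.1, 20.6 and 17.9 CPM against 39.9, 29.3 and 32.9 CPM (log2 difference -0.73, SE 0.15). The groups of Stat2 and of Irf9 did not overlap, and both had an edgeR adjusted p of 0.099. Irf7 stood at 12.3, 7.03 and 8.73 CPM against 28.3, 19.6 and 11.6 CPM (log2 difference -1.09, SE 0.30), and the lowest WT culture overlapped with the highest mutant. DESeq2 called all 3, with adjusted p values of 0.00068, 0.0042 and 0.017. Of the 4 sensors of foreign nucleic acid, all were lower at an unadjusted p under 0.05. Ddx58, which encodes the RNA helicase RIG-I, was the one called by DESeq2 (adjusted p = 0.022), at 48.2, 39.9 and 41.96 CPM against 88.8, 59.2 and 56.2 CPM.

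All 5 genes of the ISG15 system and of the ADP-ribosyl and ubiquitin transferases were lower at an unadjusted p under 0.05. Usp18 stood at 7.02, 5.78 and 3.92 CPM against 24.2, 14.5 and 10.6 CPM in WT (log2 difference -1.55, SE 0.30, edgeR adjusted p = 0.091, DESeq2 adjusted p = 9.6e-05). The groups were apart, as they were for Parp14, a mono-ADP-ribosyl transferase, at 5.66, 4.05 and 3.92 CPM against 12.4, 8.94 and 6.25 CPM. Isg15 itself overlapped, at 8.62, 4.29 and 5.49 CPM against 19.0, 12.8 and 5.62 CPM (log2 difference -1.03, SE 0.39). Its lowest WT culture was replicate 3. Of the 5 OAS and OAS-like genes, a family known for enzymes that make the messenger activating RNase L, 3 were lower at an unadjusted p under 0.05. Oas1a was called by DESeq2 (adjusted p = 0.041), at 6.14, 4.59 and 4.02 CPM against 11.5, 9.64 and 7.20 CPM.

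Among the other antiviral effectors 12 of 15 tested were lower at an unadjusted p under 0.05. Bst2, encoding the tetherin that holds budding virions at the cell surface, stood at 19.0, 16.0 and 14.1 CPM against 44.8, 32.5 and 22.2 CPM in WT. Ifi44 stood at 8.78, 7.33 and 6.77 CPM against 33.1, 18.1 and 10.2 CPM. Lgals3bp, a secreted glycoprotein, stood at 32.2, 22.99 and 35.0 CPM against 72.8, 77.0 and 42.3 CPM. In all 3 genes the groups were apart, and DESeq2 called them with adjusted p values of 0.0014, 0.0013 and 9.7e-05, while edgeR gave 0.13, 0.16 and 0.099. Xaf1 was also apart, at 14.1, 12.03 and 11.8 CPM against 36.0, 19.8 and 16.1 CPM, and so was Rtp4, a protein that helps receptors reach the cell surface, at 25.7, 18.6 and 18.7 CPM against 76.6, 36.9 and 32.2 CPM. The translation inhibitor Ifit1 stood at 13.6, 10.1 and 13.6 CPM against 36.3, 16.2 and 15.4 CPM, and Ifit3 at 5.66, 4.29 and 5.88 CPM against 14.2, 9.57 and 6.89 CPM. Ifitm3 overlapped, at 472, 370.0 and 536 CPM against 931, 794 and 445 CPM. Gbp3 and Gbp7, guanylate-binding protein genes whose promoters are printed above, were among the lowest relative to WT. Gbp3 stood at 1.76, 1.67 and 2.26 CPM against 7.88, 5.66 and 3.47 CPM (log2 difference -1.59, SE 0.33), and Gbp7 at 5.19, 5.72 and 6.47 CPM against 22.9, 14.0 and 9.22 CPM (log2 difference -1.41, SE 0.29). DESeq2 called both and edgeR neither. Gbp2, the 2 antigen processing genes tested, Rsad2, Oasl1 and Isg20 were nearer to WT than Gbp3 and Gbp7, with log2 differences from -0.68 to -0.06. The sensors and the genes of the ISG15 system and transferases also reached into this range, each with a smallest difference of -0.54.

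How many members were called in the double mutant depended on single cultures. Without WT replicate 3, the culture that was lowest for 37 members, edgeR called 19, and without WT replicate 1, WT replicate 2, mutant replicate 1 or mutant replicate 2 it called none. These counts stand without the share of all genes called in the same fits, so they show only a dependence on cultures. Over all 13 settings the median log2 difference lay between -1.13 and -0.70, and between 21 and 36 members were lower at an unadjusted p under 0.05. Oasl1 and Rsad2 without WT replicate 1, and Isg20 without WT replicate 2 or without mutant replicate 3, had a positive difference. With 1 fit over all mEF libraries 14 members were called, against 0.701% of all genes. Macrophage markers were lower too, 16 of 17 by log2 difference and 10 of 17 at an unadjusted p under 0.05. The median log2 difference of these markers was -0.41, and Mrc1 was called. Their summed level was 588 to 857 TPM in the mutants and 923 to 1034 TPM in WT. All erythroid genes tested also had a negative log2 difference, from -2.05 to -1.66, without a call by edgeR. Of 10 fibroblast markers 8 were lower and 1 was higher at an unadjusted p under 0.05. The 10 had a median log2 difference of -0.56 and a summed level of 3599 to 4129 TPM against 4316 to 5310.4 TPM. The part of these cells in the members' levels was not tested.

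**Figure D4:**
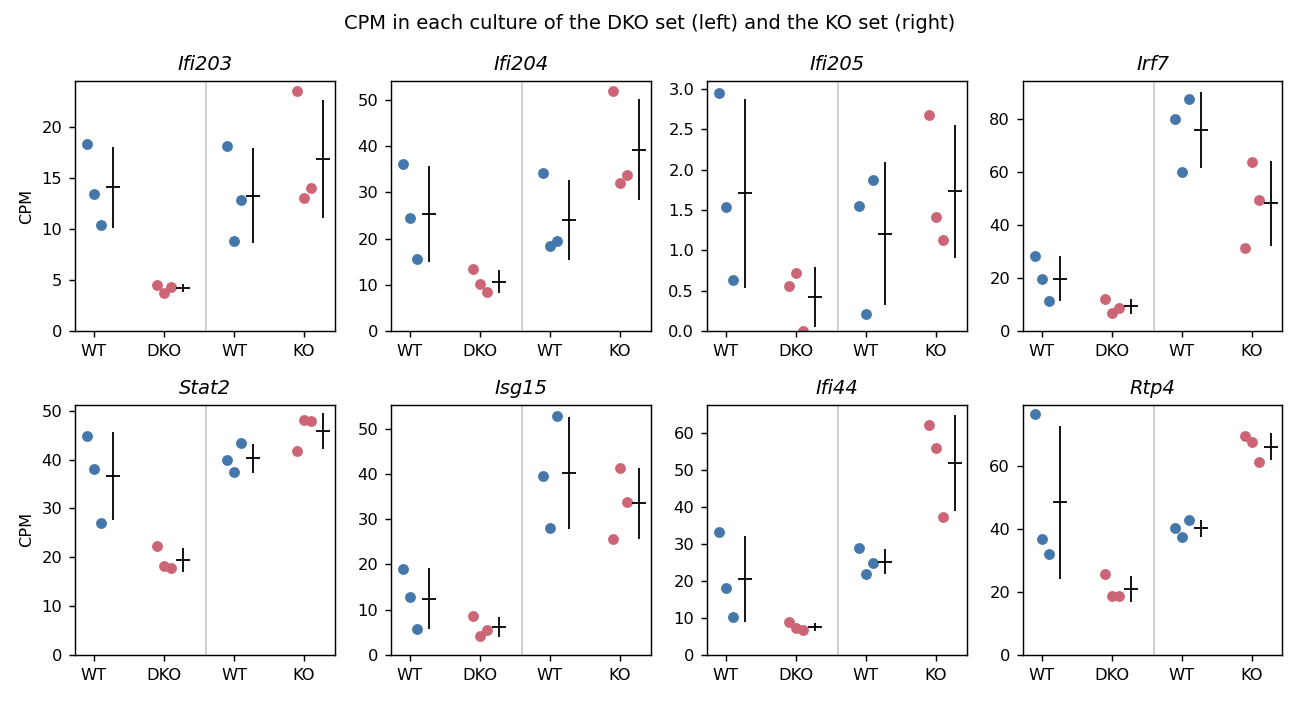
CPM of 8 members in each culture of the double mutant (DKO) set and of the Chaserr-/- set, points for cultures and bars for mean and SD (n = 3). Ifi203 separates WT and double mutants, at 10.4 to 18.3 and 3.75 to 4.55 CPM, while Rtp4 and Ifi44 are higher in Chaserr-/- than in WT.

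In Chaserr-/- mEFs the list split. None of 41 members tested was called by edgeR, where 0.118% of all genes were called, while 9 passed an unadjusted p under 0.05 against 33.9% of all genes. Of these, 4 were higher and 5 lower, and their edgeR adjusted p values lay between 0.052 and 0.12. DESeq2 called 7 of the members, against 21.7% of all genes with an adjusted p. With 1 fit over all mEF libraries edgeR called 5, against 32.1% of all genes. Cultures did not overlap for 4 members above WT and 5 below it, against 21.8% and 21.4% of all genes. The median log2 difference of the members was 0.02, and in each of these counts the share of members was below that of all genes.

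Rtp4 stood at 69.7, 67.6 and 61.4 CPM in Chaserr-/- and at 40.4, 37.6 and 42.8 CPM in WT (log2 difference 0.72, SE 0.13, edgeR adjusted p = 0.052). Ifi44 stood at 62.2, 56.0 and 37.4 CPM against 28.9, 22.0 and 25.0 CPM (log2 difference 1.04, SE 0.20, edgeR adjusted p = 0.052). Both were apart from WT and were called by DESeq2, with adjusted p values of 0.00019 and 0.00021. Ifi204 stood at 51.8, 32.0 and 33.8 CPM against 34.1, 18.4 and 19.6 CPM and overlapped (log2 difference 0.70, DESeq2 adjusted p = 0.038). Ifit2, another translation inhibitor, had a log2 difference of 0.52 and no call by either tool. All 3 p200 members were higher by mean, Ifi203 at 23.5, 13.0 and 14.0 CPM against 18.1, 8.85 and 12.9 CPM and Ifi205 at 2.67, 1.41 and 1.12 CPM against 1.55, 0.208 and 1.87 CPM, without passing. Outside the list Mnda had a log2 difference of 1.02 and Ifi202b of 2.10, with DESeq2 adjusted p values of 0.0025 and 0.00019 and edgeR values of 0.053 and 0.052.

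The 5 members on the lower side included 2 antiviral effectors, Lgals3bp and Ifitm3, and the higher side held effectors too. Lgals3bp stood at 79.0, 149 and 130.3 CPM in Chaserr-/- against 229, 178 and 209 CPM in WT (log2 difference -0.78, SE 0.21, edgeR adjusted p = 0.054). Irf7 stood at 31.3, 63.5 and 49.4 CPM against 79.8, 60.0 and 87.6 CPM, and Ifitm3 at 878, 1358 and 1112 CPM against 1712, 1201 and 2070.4 CPM. These 2 overlapped with WT, and Chaserr-/- replicate 1 was the lowest culture in all 3 genes. All 5 OAS genes had a negative difference, of which Oas2, at 6.78, 9.59 and 7.96 CPM against 15.0, 10.3 and 13.7 CPM, was called by DESeq2 (adjusted p = 0.048). The immunoproteasome subunit Psmb9 was scarce, at 0, 0.352 and 0.919 CPM against 1.55, 1.25 and 1.28 CPM. Levels of Stat2, at 41.7, 48.1 and 48.0 CPM against 40.0, 37.5 and 43.4 CPM, and of Isg15, at 25.6, 41.3 and 33.8 CPM against 39.5, 28.1 and 52.9 CPM, did not pass the test, nor did those of Ifit1 at 33.7, 35.8 and 28.2 CPM against 27.9, 15.5 and 33.5 CPM. Ifit3 at 15.4, 16.4 and 13.4 CPM against 14.2, 9.06 and 16.0 CPM and Bst2 at 51.2, 99.4 and 77.7 CPM against 98.5, 93.8 and 116 CPM overlapped as well. Of the 17 macrophage markers 13 had a negative log2 difference in Chaserr-/- and 4 a positive one, up to 0.39. At an unadjusted p under 0.05, 9 were lower, with Cd68 and Laptm5 called. All 17 together summed to 1039.7 to 1095 TPM against 1351 to 1608 TPM in WT. All erythroid genes tested had a negative log2 difference, from -2.55 to -0.91, without a call by edgeR. The part of macrophage and erythroid cells was not tested. Leaving out Chaserr-/- replicate 2 took the edgeR count to 7 members, and leaving out replicate 1 took it to 3. The share of all genes called without these cultures is not given here.

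The difference between the effects in the Chaserr-/- and the double mutant mEFs was tested directly, each against its own WT. It was higher in Chaserr-/- for 41 of 42 members, with a median of 0.81 on the log2 scale, and edgeR called 16 members, all higher in Chaserr-/-, against 15.6% of all genes called and 10.2% called higher. Among the 16, the differences were largest for Ifi44 (2.47), Ifi203 (2.09), Ifi204 (1.95) and Rtp4 (1.93), and they took in 2 of the 3 transcription factors (Stat2 and Irf9), 2 of the 3 p200 genes and 2 of the 3 GTPases. All 3 antigen processing genes failed the test. DESeq2 called 19. Without WT replicate 5 of the Chaserr-/- set or without WT replicate 1 of the double mutant set 8 were called by edgeR. The share of all genes called by DESeq2 or without these cultures is not given here. The 2 sets differ in pregnancy and cross as well as in genotype, which cannot be told apart. Between the double mutant and Chd2 m/m effects no member was called by edgeR or DESeq2, where edgeR called 0.0132% of all genes, while 21 were lower in the double mutant at an unadjusted p under 0.05, against 2.45% of all genes. Between Chaserr-/- and Chd2 m/m effects edgeR called none against 11.0% of all genes (3 members at an unadjusted p under 0.05), and DESeq2 called Rtp4 alone. Between Chaserr-/- and Chaserr+/- effects neither tool called a member, against 13.3% of all genes by edgeR, and 3 passed an unadjusted p under 0.05.

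In the single heterozygotes and in Chd2 m/m mEFs no member was called by edgeR or by DESeq2. In Chd2 m/m mEFs, where edgeR called 0.0145% of all genes, 2 of 38 members passed an unadjusted p under 0.05, against 4.51% of all genes. Xaf1 stood at 17.5 and 14.4 CPM against 12.8, 11.9 and 10.2 CPM in WT (log2 difference 0.46, SE 0.13), and Ifitm3 at 785 and 715 CPM against 684, 688 and 614 CPM (log2 difference 0.18, SE 0.07). Both mutant cultures were above all WT cultures in these genes, as they were for 3 members in all, with 3 others below, against 10.3% of all genes above and 10.4% below. The median difference of the members was -0.06. In Chaserr+/- mEFs, where 0.173% of all genes were called, 2 of 36 members passed an unadjusted p under 0.05, against 8.36% of all genes. These were Tap1, a subunit of the peptide transporter of antigen presentation, at 13.55, 10.8 and 8.45 CPM against 7.04, 7.29 and 6.86 CPM, and Xaf1 at 11.8, 12.8 and 7.16 CPM against 7.26, 6.70 and 6.22 CPM. In these cultures replicate 2 of Chaserr+/- was the highest of its group for 31 of 42 members.

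In the Chaserr+/- tissues the members stayed close to WT in the mean. In E9.5 embryos no member of 21 tested passed even an unadjusted p under 0.05, and edgeR called 0% of all genes. In E13.5 embryos, where it called 0.0314%, 2 of 40 did, against 6.34% of all genes. Ifitm3 stood at 14.2, 14.9 and 16.4 CPM against 18.6, 17.5 and 18.5 CPM in WT (log2 difference -0.27, SE 0.08), and Dhx58, a helicase related to RIG-I, at 1.58, 1.79 and 1.64 CPM against 2.02, 2.46 and 2.27 CPM (log2 difference -0.43, SE 0.16). Both genes were below WT without overlap, as were 4 members in all and none above, against 7.07% of all genes below and 5.74% above, and the edgeR adjusted p was 0.73 for each. In brains none of 35 members passed an unadjusted p under 0.05, and 0% of all genes were called. Irf7 stood at 5.41, 3.81 and 1.55 CPM in Chaserr+/- brains and at 5.08, 5.02 and 1.42 CPM in WT brains, with replicate 3 the lowest in both groups. Replicate 3 of each brain group was made with another library kit, and kit and mouse cannot be told apart.

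The other genes of the interferon pathway were counted in the same way. Of 30 pathway genes tested in the double mutants, among them receptors, kinases, adaptors and signal transducers, none was called by edgeR and 6 were lower at an unadjusted p under 0.05, where 5.73% of all genes were, with a median log2 difference of -0.19. Eif2ak2, the RNA-activated kinase PKR, had a log2 difference of -0.54 (SE 0.11, edgeR adjusted p = 0.11, DESeq2 adjusted p = 0.0082). In Chaserr-/- none of 31 was called by edgeR, and 4 were higher and 7 lower at an unadjusted p under 0.05, where 33.9% of all genes passed in either direction.

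Open chromatin was read at the starts of 41 members, as a MACS2 peak within 300 bases of an annotated start (mm9, GENCODE vM1). Peaks were present at 34, 16 and 32 members in the WT libraries of the double mutant set and at 23, 31 and 32 in the double mutants. In the Chaserr-/- set they were present at 33, 36 and 33 members in WT and at 35, 40 and 39 in Chaserr-/-. The low counts of 16 and 23 belong to the 2 libraries with the fewest peaks, 18661 and 28349, and the high counts of 40 and 39 to the 2 with the most, 91121 and 93597. Among all genes the share with a promoter peak was 57.4% to 63.0% in the 10 libraries other than the 2 lowest. In the other 8 libraries, 58324 to 70516 peaks went with 32 to 36 members, and 80703 and 81986 peaks with 31 and 32. The part of depth was not tested. In all 12 libraries 15 members had a peak, among them Stat2, Irf9, Usp18, Bst2, Gbp3, Ifi204 and Ifi205. Oas3 had none in any, and Isg15, Oasl2 and Ifi44 had one in 3 of 12 libraries and Oas2 and Zbp1 in 2. Isg15 thus lacked a called peak in most cultures although its promoter carries the repeated core printed above. Ifi203, the gene called in the double mutants, had a peak in 2 of 3 double mutant libraries and 1 of 3 of their WT libraries, and in 3 of 3 Chaserr-/- libraries and 2 of 3 of theirs.

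**Figure D5:**
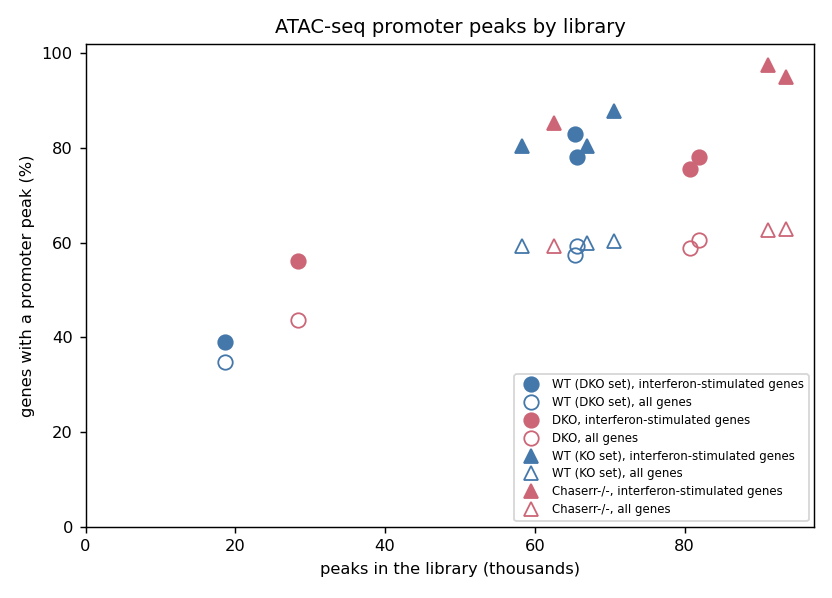
Percent of genes with a promoter peak against the number of peaks called (axis in units of 1000) for each of 12 ATAC-seq libraries of mEFs, with filled points for the 41 members and open points for all genes. The libraries with 18661 and 28349 peaks are the lowest for both, and those with 91121 and 93597 peaks the highest for members.

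In the RIP, which asks which RNAs are recovered with CHD2 protein in Neuro2a cells, edgeR called members no more often than all genes. Oas3 was called higher and Xaf1 lower against both IgG and input. RNAs of cell types that a neuroblastoma line should lack were present in these libraries and differed between the 3 kinds. The 17 macrophage markers, all detected, summed to 965 to 1289 TPM with IgG, 555 to 625 TPM with the CHD2 antibody and 203 to 248 TPM in the input. Astrocyte and oligodendrocyte markers summed to 2301 to 3054, 1379 to 1593 and 489 to 625 TPM in the same order, and erythroid markers to 3058 to 3869, 1979 to 2121 and 699 to 888 TPM. All 15 macrophage markers tested had a negative log2 difference from IgG (median -1.05), and 14 of 15 a positive one from the input (median 0.81). Their part in the members' differences was not tested. Against IgG, edgeR called 2 of 35 members, where 11.5% of all genes were called, and DESeq2 also called 2. Oas3 stood at 18.1 and 10.4 CPM with the CHD2 antibody, at 3.69 and 2.10 CPM with IgG and at 1.49 and 1.89 CPM in the input (log2 difference from IgG 2.28, SE 0.52, adjusted p = 0.027, edgeR). Xaf1 was depleted, at 3.83 and 2.02 CPM against 8.43 and 14.8 CPM with IgG (log2 difference -1.99, SE 0.49, adjusted p = 0.035, edgeR). Against the input 5 members were called, where 15.1% of all genes were called. These were Oas3 (log2 difference 3.06), higher, and Tap1 (-2.14), Xaf1 (-1.97), Ifi35 (-1.81) and Bst2 (-1.35), lower. The median over all genes was 0.32 against the input. Each group had 2 libraries, and without either CHD2 library no member was called against IgG or input. Without either input library none was called against the input, and without either IgG library 10 were, while without IgG replicate 2 the count against IgG was 8. The share of all genes called without these libraries is not given here.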

How the data were processed

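RNA-seq libraries of embryos, brains, mEFs and a CHD2 RIP and ATAC-seq libraries of mEFs were analysed. Per the file headers and methods, the authors quantified each RNA library with RSEM on RefSeq transcripts with an edited Chaserr last exon and deposited, for every gene, its expected count, TPM and FPKM. For ATAC-seq the authors aligned to mm9 with Bowtie2, called peaks per library with MACS2, and deposited the score of every peak with its fold enrichment (ratio to local background), -log10 p and -log10 q. Versions are not given in the sources used here. The 4C experiments were not analysed here.

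Rows were matched to symbols by gene ID (23449 of 24990 rows). Expected counts were rounded and fitted with edgeR 4.0.16 (filterByExpr, TMM, quasi-likelihood test, Benjamini-Hochberg adjustment over all genes tested, threshold 0.05) in R 4.3.3, each mutant against the WT of its own set. CPM are scaled by TMM within each comparison, and log2 CPM use a prior count of 2. Effects in 2 sets were compared by an interaction term over all mEF libraries. DESeq2 1.42.0 served as an alternative, beside RLE scaling, no filter, at least 10 counts in every library, leaving out each library, a replicate block, 1 fit over all mEF libraries and WT cultures of both pregnancies. Libraries of the same number went together in brains alone (correlations of deviations from the group means 0.44 to 0.75). Replicate 3 of both brain groups was made with another kit, and kit and a pairing of mice cannot be told apart. The fit was tested on simulated data.

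Members and gene lists were chosen with earlier results of these data known. Values per library are given for Ifi203, Ifi204, Ifi205, Irf7, Stat2, Isg15, Ifit1, Ifit3, Ifitm3 and Bst2 in the Chaserr-/- and double mutant mEFs, for members called by edgeR or DESeq2 in a mutant, and for up to 5 members with the smallest p in each mutant comparison.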

Additional observations from a re-analysis of the deposited data

Results flagged for a closer look

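Members whose effect in Chaserr-/- mEFs differed from that in Chaserr-/- Chd2 m/m mEFs, by the interaction term of edgeR's quasi-likelihood test at an adjusted p under 0.05, numbered 16. The differences on the log2 scale, Chaserr-/- effect minus double mutant effect, were 2.47 for Ifi44, 2.09 for Ifi203, 1.95 for Ifi204, 1.93 for Rtp4, 1.92 for Gbp3, 1.70 for Usp18 and 1.64 for Gbp7. They were 1.38 for Oasl2, 1.32 for Parp14, 1.22 for Ifit1, 1.17 for Ifit3, 1.11 for Stat2, 0.96 for Ifih1, 0.84 for Ifit2, 0.69 for Trim25 and 0.65 for Irf9. The sets also differ in pregnancy and cross.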

How the results depend on the processing

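For members named with a value in a comparison, 467 of 585 values under alternatives kept direction and side of the threshold and 4 turned direction. Those 4 did so with WT cultures of both pregnancies, where the log2 difference was -1.24 for Xaf1 in Chaserr+/- mEFs and 0.29 for Irf7, 0.23 for Oas2 and 0.00898 for Ifitm3 in Chaserr-/- mEFs. Members called in Chaserr-/- mEFs numbered 0, with no filter 3, with 10 counts in every library 3, with DESeq2 7, with 1 fit over all mEF libraries 5, and without single replicates 0 to 7. In double mutants they numbered 1, with no filter 11, with DESeq2 15, with 1 fit 14, and without single replicates 0 to 19. There Oasl1 (0.01) and Rsad2 (0.06) without WT replicate 1 and Isg20 without WT replicate 2 (0.44) and mutant replicate 3 (0.07) had positive log2 differences. The numbers of the double mutant set gave correlations from -0.09 to 0.21 and were not taken as pairs, and with the replicate block 9 members were called. The block changed no call in brains. For leave-outs, filter settings and the replicate block the share of all genes called is not given here. Between E9.5 and E13.5 the filter of 10 counts left 16 members called, since it drops genes low at E9.5. Without single replicates the counts were 0 to 8 in the RIP against IgG, 0 to 10 against input, 8 to 21 for the difference of Chaserr-/- and double mutant effects, and 0 to 1 for that of Chaserr-/- and Chaserr+/- effects, while DESeq2 called 1 member for Chaserr-/- against Chd2 m/m. Leaving out the 2 ATAC-seq libraries with fewest peaks, chosen after seeing the data, moved the median of members with a promoter peak from 33 to 33.5. The filter on low counts left 21 of 42 members to test in E9.5 embryos, whose libraries held 21589962 to 31293072 counts.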
